A study of Mus musculus with 60 samples.

Results

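The adrenal steroid synthesis genes followed here are the 8 genes Star, Cyp11a1, Cyp11b1, Cyp11b2, Cyp21a1, Hsd3b1, Fdx1 and Nr5a1. They were taken by symbol from tables of 55290 named features, and all 8 were listed in each of 5 organs. RNA came from 5 whole organs (kidney, liver, spleen, heart and brain) of male mice aged 4 months, 3 Ftsj1-deficient and 3 wildtype, with 1 poly-A library per mouse and organ. Ftsj1 encodes a tRNA ribose methyltransferase, and the labels give neither the strain nor how its loss was brought about. A pair of the 6 mice were brothers, the other 4 were brothers of each other, and both genotypes occurred in each set of brothers. Ftsj1 RNA fell in Ftsj1-deficient mice in all 5 organs, with a log2 fold change from -3.51 in liver to -2.70 in brain in the authors' deposited table. Mice had free access to food. Only whole organs were sampled, so fewer cells of a type and less RNA per cell cannot be told apart in any value below. Every difference is Ftsj1-deficient minus wildtype.

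Steroid hormones are made from cholesterol mainly in the adrenal cortex and the gonads. The Star protein brings cholesterol into mitochondria, Cyp11a1 cuts its side chain with electrons passed on by Fdx1, and Hsd3b1 and Cyp21a1 turn the product into precursors of corticosterone and aldosterone. Cyp11b1 and Cyp11b2 carry out the last steps to corticosterone and aldosterone, and Nr5a1 is the nuclear receptor that switches on most of these genes. The adrenal gland lies on the upper pole of the kidney, and its medulla makes catecholamines.

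All 8 genes had a log2 fold change below 0 in kidney, lower in Ftsj1-deficient than in wildtype mice. It lay between -23.06 and -2.46 for 7 of them, none of which had a p-value to be called by, and at -0.03 for Fdx1. For each of the 7, the authors' deposited table holds a fold change and leaves the p-value empty, which DESeq2 does where single libraries hold an extreme count. Whole reads per library could be recovered for 4 of the 7, and in each of the 4 more than 96% of the reads lay in 1 of the 6 kidney libraries. Outside kidney, 1 difference passed the test, a fall of Cyp21a1 in Ftsj1-deficient liver.

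Cyp11b1 and Cyp11b2 are neighbours on chromosome 15, Cyp21a1 has a pseudogene, Cyp21a2-ps, on chromosome 17, and Hsd3b1 lies in a cluster of similar genes on chromosome 3. Stretches of 120 coding bases from the middle of each gene, as annotated in GENCODE vM21, are shown with those of a similar gene. Reads from such copies can be assigned to the wrong one. Other genes of these clusters were not aligned. Capitals mark the positions at which the members of a pair differ.
Cyp11b1: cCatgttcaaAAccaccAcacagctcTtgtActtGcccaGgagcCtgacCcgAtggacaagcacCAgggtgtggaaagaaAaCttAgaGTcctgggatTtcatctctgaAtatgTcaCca
Cyp11b2: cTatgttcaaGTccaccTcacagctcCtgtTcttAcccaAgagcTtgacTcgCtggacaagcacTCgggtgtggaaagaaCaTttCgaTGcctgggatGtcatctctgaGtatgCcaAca
Cyp21a1: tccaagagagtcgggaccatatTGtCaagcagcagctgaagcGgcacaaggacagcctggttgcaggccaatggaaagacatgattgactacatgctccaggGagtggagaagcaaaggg
Cyp21a2-ps: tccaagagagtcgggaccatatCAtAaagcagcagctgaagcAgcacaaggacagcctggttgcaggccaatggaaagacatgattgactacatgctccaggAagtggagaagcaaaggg
Hsd3b1: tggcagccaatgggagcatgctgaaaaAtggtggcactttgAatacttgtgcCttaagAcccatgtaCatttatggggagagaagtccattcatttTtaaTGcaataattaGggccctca
Hsd3b6: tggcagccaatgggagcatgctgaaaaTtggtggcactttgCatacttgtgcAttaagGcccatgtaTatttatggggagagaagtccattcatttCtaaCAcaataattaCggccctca
Cyp11b1 and Cyp11b2 differed at 22 of these positions, and over 1530 aligned transcript positions they were 87.1% identical, with a longest identical run of 244 bases. Hsd3b1 and Hsd3b6 were 88.0% identical over 1342 positions, with 9 differences in the stretch shown. Cyp21a1 and Cyp21a2-ps were the closest pair, with 97.4% identity over 1182 positions and 5 differences in the stretch shown. The counting of reads that match several places is not stated in any source at hand, so the split of reads between Cyp21a1 and its pseudogene is uncertain. The 3' end of Cyp11b1 also overlaps Gml2 on the opposite strand, and whether counting used the strand is not given either.

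The mean level of each gene, in the authors' deposited table, covers both genotypes and has no spread over mice. It is given here in parts per 1000000 (ppm) of the summed mean level of the organ's table, and only organs within a gene are set side by side. Cyp11b1 stood at 3.89 ppm in kidney, 0.00858 in spleen, 0.00576 in liver and 0.00353 in brain, and was listed at 0 in heart. Cyp11b2 stood at 0.276 ppm in kidney and between 0.00121 and 0.00978 in the other 4 organs. Outside kidney, from 2 to 20 reads of either gene were recovered over the 6 libraries of each organ that listed any. The kidney means rest on 1 of the 6 kidney libraries, described below with its reads. Over the other 5, in a comparison chosen after seeing the data, the kidney level was 0.0140 ppm for Cyp11b1 and 0.000983 ppm for Cyp11b2, the second of which is below brain at 0.00978 ppm. Each of these 5 kidney libraries held 8 reads or fewer of either gene.

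Hsd3b1 was also highest in kidney by its mean, at 8.50 ppm, followed by liver at 1.68 ppm, with 0.0189 or less in brain, heart and spleen. Cyp11a1 was at 3.37 ppm in kidney, 2.86 in brain, 1.07 in spleen, 0.0576 in heart and 0.0177 in liver. The kidney estimates of Hsd3b1 and Cyp11a1 had an empty p-value, as where single libraries hold an extreme count. Their reads per library could not be worked back, so whether their kidney ranks hold without the highest library was not tested. Cyp21a1 was at 5.09 ppm in spleen, 4.39 in kidney, 0.132 in liver and 0.00157 in brain, and was listed at 0 in heart. Kidney and spleen changed places for Cyp21a1 when levels were set against the median feature of each table. Over the 5 kidney libraries other than the highest, Cyp21a1 was at 0.00397 ppm in kidney, below its level in liver and spleen.

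Star was at 98.9 ppm in spleen, 15.01 in kidney, 9.20 in brain, 4.22 in heart and 1.90 in liver. Its kidney mean carries the same limit as those of Hsd3b1 and Cyp11a1. Nr5a1, which is known to be active in endothelial cells of the spleen, was at 19.5 ppm in spleen, 0.373 in kidney and 0.312 in brain, with 0.0323 in heart and 0.000781 in liver. Over the 5 kidney libraries other than the highest, Nr5a1 was at 0.0157 ppm in kidney. Spleen thus held the highest levels of the carrier Star and the regulator Nr5a1, but near none of Cyp11b1, Cyp11b2 and Hsd3b1, for which 8, 2 and 3 reads were recovered over its 6 libraries. Fdx1, which serves several mitochondrial enzymes besides Cyp11a1, was at 68.5 ppm in liver, 60.1 in kidney, 36.2 in heart, 12.1 in spleen and 9.60 in brain. The order of neighbouring organs could not be tested for any gene, as the tables give no level per mouse.

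**Figure D1:**
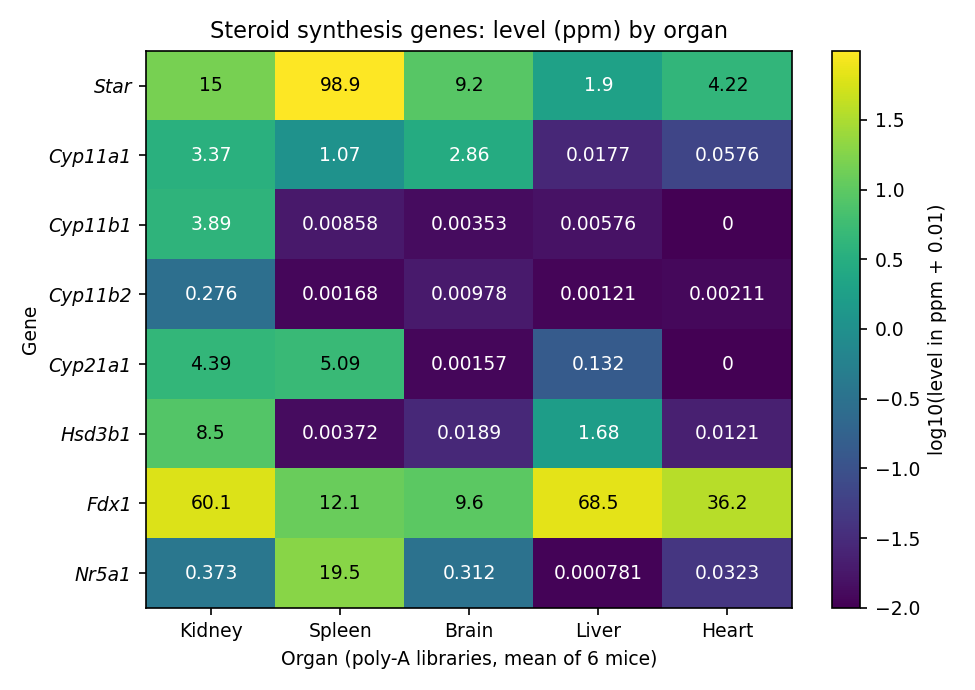
Level of each gene (down) in each organ (across), as its mean normalised count in ppm of the summed mean counts of that organ's table, over the 6 mice of both genotypes. Colour is on a log10 scale with 0.01 added. In kidney, every gene but Fdx1 had an empty p-value, so these kidney means may rest on few libraries. The kidney levels of Cyp11b1 and Cyp11b2, 3.89 and 0.276 ppm, rest on 1 kidney library and come to 0.0140 and 0.000983 ppm over the other 5, while Star and Nr5a1 were highest in spleen, at 98.9 and 19.5 ppm.

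In kidney, the estimates were below 0 for all 8 genes. Cyp11b2, the aldosterone synthase, averaged 93.4 normalised counts and had a log2 fold change of -23.06 ± 3.91 (SE) in the authors' deposited table, lower in Ftsj1-deficient kidneys. Cyp21a1, the 21-hydroxylase, had -10.82 ± 3.82 at a mean of 1484 in that table, and Cyp11b1, the 11-beta-hydroxylase, -8.49 ± 3.75 at 1315. All 3 were lower in Ftsj1-deficient kidneys by the estimate, and their p-values were left empty in the authors' deposited table.

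The other genes with an empty p-value in kidney had estimates nearer to 0. In the authors' deposited table Cyp11a1, the side-chain cleavage enzyme, had a log2 fold change of -6.82 ± 2.04 and averaged 1138 normalised counts. Hsd3b1, the 3-beta-hydroxysteroid dehydrogenase, had -4.13 ± 1.499 at 2872 in that table, and Star had -2.46 ± 1.17 at 5070. The regulator Nr5a1 had -5.09 ± 2.10 at 126 in the authors' deposited table. These 4 lacked a p-value as well, and their estimates were also on the lower side for Ftsj1-deficient kidneys.

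Fdx1, which averaged 20322 normalised counts in the authors' deposited table, had a log2 fold change of -0.03 ± 0.09 and a DESeq2 adjusted p of 0.9997. It is the only gene of the 8 that could be tested in kidney, where 0 of 1 was called, against 0.987% of all features tested. The p-value was left empty, as for count outliers, in 0.156% of the 35330 features with a kidney level, and in 0.0821% with a lower estimate in Ftsj1-deficient kidneys. The median kidney estimate of the 8 genes was -5.95, against -0.0020 for all features with an estimate. That median rests on 7 fits with an empty p-value. All 4 genes with recovered reads, described below, were highest in the same kidney library, so the genes are not separate evidence of a genotype difference.

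**Figure D2:**
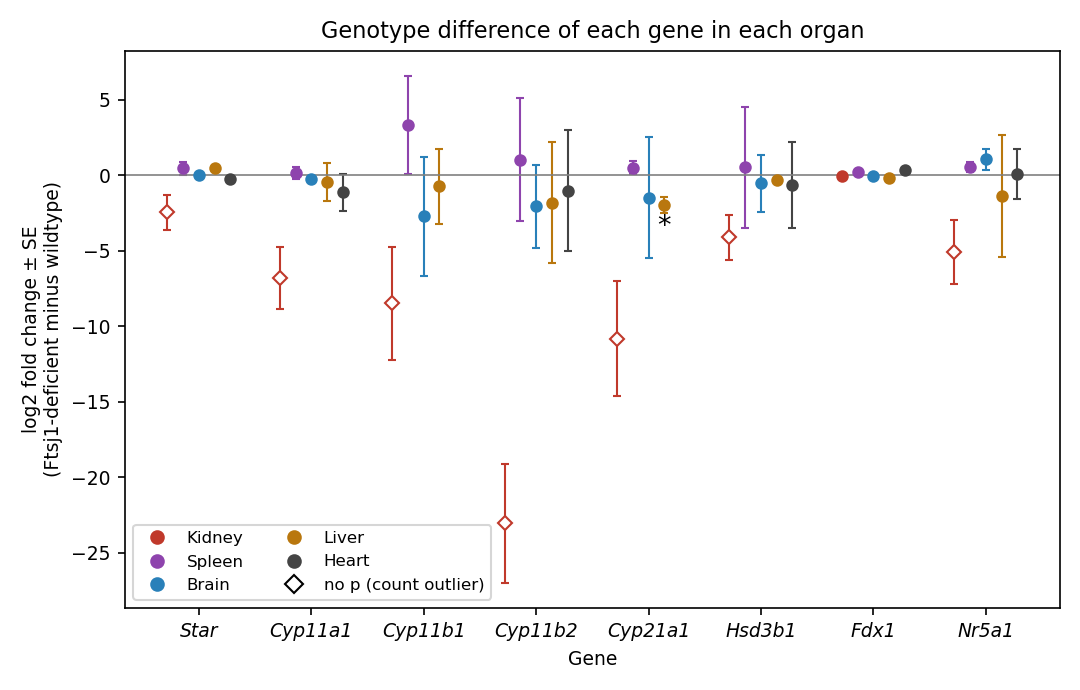
Log2 fold change with its standard error (Ftsj1-deficient minus wildtype, 3 mice each) of each gene, by organ, as in the authors' deposited table. Open diamonds are kidney estimates whose p-value was left empty, and the asterisk marks the only difference with an adjusted p under 0.05, Cyp21a1 in liver. Kidney estimates ran from -23.06 for Cyp11b2 to -0.03 for Fdx1, and estimates in the other organs lay between -2.73 and 3.30, many with errors above 1.

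The deposited kidney mean is the mean of 6 whole read numbers, each divided by the size factor of its library, and is printed with 15 digits. That let the 6 read numbers of a gene be worked back where the search kept only 1 combination that gives the printed mean. Libraries are numbered 1 to 6 from the largest size factor, 4.81, to the smallest, 0.268, and which mouse each number stands for is not in the tables. Size factors follow depth, so the smallest library saw about 17.97 times fewer reads than the largest. A library with 0 reads therefore allows up to 3 reads, or 0.623 normalised reads in library 1 and 11.2 in library 6, by counting error only.

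Cyp11b1 had 6, 0, 8000, 0, 0 and 6 reads in libraries 1 to 6. Library 3 held 99.9% of them (95% exact binomial interval 99.7 to 99.9%). This interval and those below cover the counting of reads only, not differences between mice, as 1 mouse stands behind library 3. Cyp21a1 had 10, 7, 9045, 0, 0 and 0 reads, of which library 3 held 99.8% (99.7 to 99.9%). Both genes were thus read 8000 times or more in library 3 and 10 times or fewer in each other library.

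Cyp11b2 had 8, 0, 568, 0, 0 and 0 reads, of which library 3 held 98.6% (97.3 to 99.4%). Nr5a1 had 10, 4, 742, 12, 2 and 1 reads, of which library 3 held 96.2% (94.6 to 97.5%). After division by the size factors, Nr5a1 stood at 729.7 in library 3 and between 2.08 and 14.95 in the others. The same library was far above the other 5 for all 4 genes. The estimates of all 4 genes were lower in Ftsj1-deficient kidneys, so by their sign library 3 came from a wildtype kidney. The other 5 libraries, from all 3 Ftsj1-deficient and 2 wildtype kidneys, held 12 reads or fewer of each of these genes.

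A fitted value as large as that of Cyp11b2 depends on settings of the method where reads are absent from most libraries, and is neither a size nor a bound. Read numbers of Star, Cyp11a1 and Hsd3b1 could not be worked back, since the search left no sole combination within its limit on chance solutions. The same statement was therefore not tested for them.

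**Figure D3:**
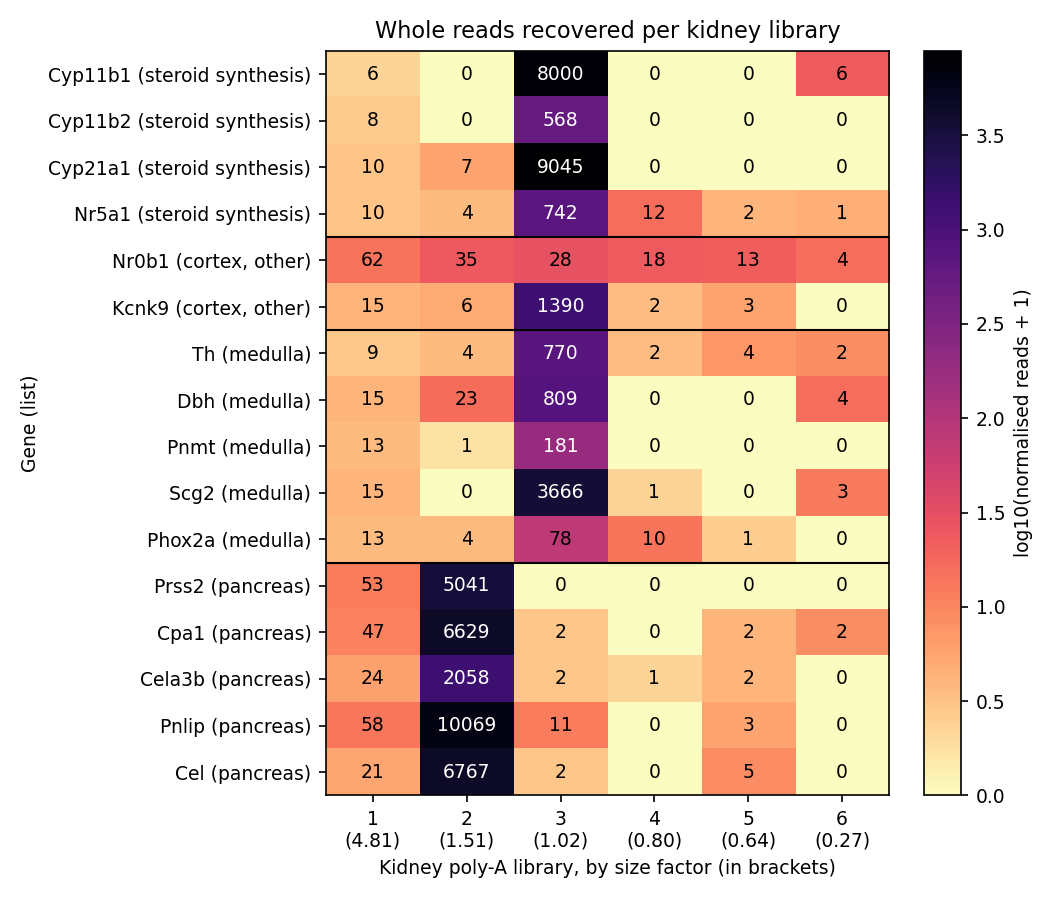
Whole reads recovered for each gene (down) in kidney poly-A libraries 1 to 6 (across, size factor in brackets), with colour for log10 of the reads divided by the size factor plus 1. The 4 steroid synthesis genes and the medulla genes were highest in library 3, Nr0b1 was spread over all libraries, and pancreas genes were highest in library 2.

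Other adrenal genes were set beside them. Of 13 genes of the adrenal medulla, 1 was listed at 0 in kidney, Hand2, and 6 had an empty p-value and a lower estimate in Ftsj1-deficient kidneys in the authors' deposited table, namely Th, Dbh, Pnmt, Chga, Chgb and Scg2. Over all features with a kidney level, 0.0821% had an empty p-value and a lower estimate. Th, the rate-limiting enzyme of catecholamine synthesis, had a log2 fold change of -6.00 ± 2.03 in the authors' deposited table. Its reads were 9, 4, 770, 2, 4 and 2 in libraries 1 to 6. Pnmt, which makes adrenaline, had 13, 1, 181, 0, 0 and 0 reads, and Scg2, a secretory granule protein, had 15, 0, 3666, 1, 0 and 3. Read numbers were recovered for 5 medulla genes, and library 3 was the highest for all 5. The summed level of the medulla list was 283 ppm in kidney, most of it from Slc18a1 and from Ddc, which kidney tubules are known to express. Of the 6 medulla genes with a p-value DESeq2 called 0, against 0.987% of all features tested. An unadjusted p under 0.05 was found for 2 of the 6, against 1407 of all 35275 kidney features with a p-value. The part of the medulla list in the result was not tested.

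Of 15 further genes linked to the adrenal cortex, Mc2r, the receptor for the pituitary hormone that drives the cortex, was listed at 0. Of the rest, 13 had a p-value in the authors' deposited table and 0 of the 13 were called by DESeq2, against 0.987% of all features tested. An unadjusted p under 0.05 was found for 0 of the 13, against 1407 of all 35275 kidney features with a p-value. The median log2 fold change of the 13 was 0.01, and the list holds genes such as Dab2 that kidney tubules are known to express. Akr1b7, an enzyme abundant in the mouse cortex, had -1.41 ± 0.74 (DESeq2 adjusted p = 0.905) in the authors' deposited table, and Hsd3b6, the 3-beta-hydroxysteroid dehydrogenase of aldosterone-making cells, had -1.09 ± 0.82 (DESeq2 adjusted p = 0.9997). The potassium channel gene Kcnk9 was the only gene of the 15 with an empty p-value, at -7.61 ± 2.37 in that table, and its reads were 15, 6, 1390, 2, 3 and 0. Nr0b1, a repressor of Nr5a1, did not follow them, with 62, 35, 28, 18, 13 and 4 reads and a log2 fold change of 0.08 ± 0.60 (DESeq2 adjusted p = 0.9997) in the authors' deposited table.

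The pseudogene Cyp21a2-ps went with Cyp21a1 in kidney. It had 21, 2, 590, 6, 2 and 0 reads in libraries 1 to 6 and a log2 fold change of -5.99 ± 2.26 with an empty p-value in the authors' deposited table. Gml2, which overlaps Cyp11b1, had -5.87 ± 1.97 with an empty p-value in that table. The share of these reads that belongs to Cyp21a1 or Cyp11b1 was not tested.

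**Figure D4:**
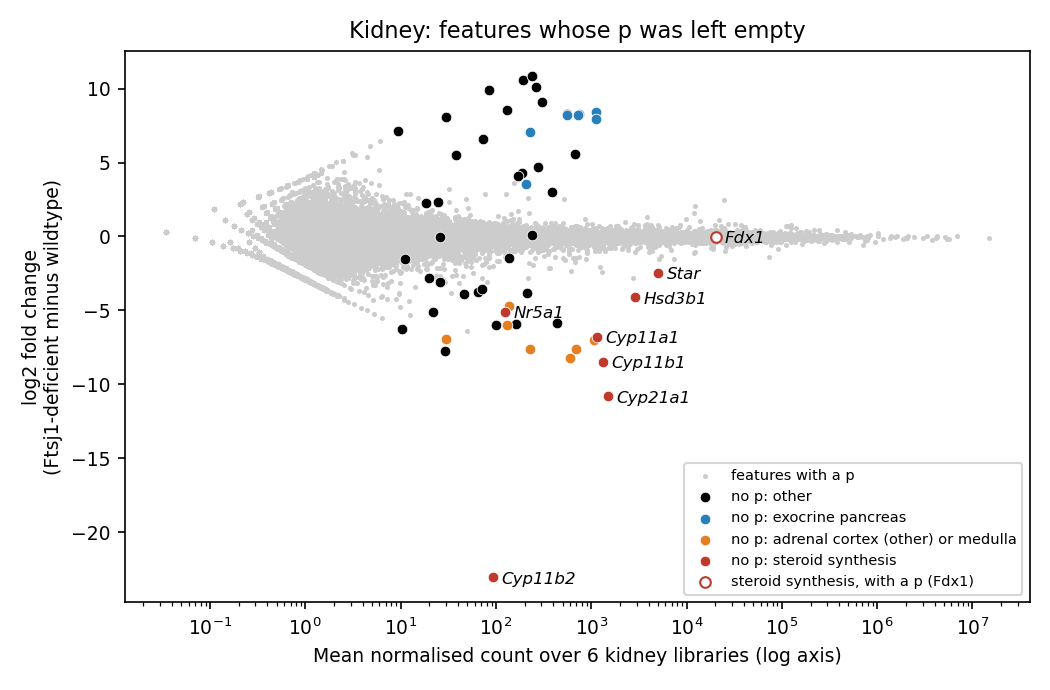
Mean normalised count (log axis) against log2 fold change (Ftsj1-deficient minus wildtype) for all features with a kidney level in the authors' deposited table, with the 55 features whose p-value was left empty in colour or black. Of the steroid synthesis genes, 7 are among the 29 such features with a lower estimate, while Fdx1 lies on the main band at -0.03.

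In all, 55 kidney features (0.156% of those with a level) had an empty p-value, 29 with a lower and 26 with a higher estimate in Ftsj1-deficient kidneys. Reads were recovered for 19 of the 29, and library 3 was the highest for 14 of them. Of the 26 with a higher estimate 18 were recovered, and library 2 was the highest for all 18. The 26 include 7 of the 9 listed genes of the exocrine pancreas. Cel, a pancreatic lipase, had 21, 6767, 2, 0, 5 and 0 reads and a log2 fold change of 8.31 ± 3.32 in the authors' deposited table. The 4 steroid synthesis genes and 5 pancreas genes with recovered reads thus peaked in different kidney libraries. The non-coding RNA Gm28382, chosen after its values were seen, was the 1 feature among the 29 that also had a level in the kidney lncRNA table of the rRNA-depleted libraries. It had 16, 1, 126, 2, 0 and 0 reads in the poly-A libraries and 6, 78, 0, 0, 0 and 2 reads in the rRNA-depleted ones, again numbered by their own size factors. Its log2 fold change was -5.09 ± 2.50 with an empty p-value in the authors' deposited poly-A table and -6.95 ± 2.46 in the authors' deposited lncRNA table, where DESeq2 gave an unadjusted p of 0.00471 and no adjusted p.

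In liver, Cyp21a1 was the only steroid synthesis gene that passed the test, 1 of 4 with an adjusted p, against 2.29% of all features tested. It fell in Ftsj1-deficient livers with a log2 fold change of -1.97 ± 0.54 (DESeq2 adjusted p = 0.0178) and averaged 31.6 normalised counts in the authors' deposited table. Its adjusted p was 0.0688 when Benjamini-Hochberg adjustment ran over the DESeq2 p-values of all 5 organs together. The pseudogene Cyp21a2-ps was at a higher mean level in liver, 290 normalised counts, with a log2 fold change of -0.73 ± 0.28 (DESeq2 adjusted p = 0.173) in the authors' deposited table. C4a, a complement gene next to Cyp21a1 on the same strand, fell with -0.44 ± 0.13 (DESeq2 adjusted p = 0.0393) in that table. Whether Cyp21a1 reads in liver come from its neighbours was not tested.

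Liver Star had a log2 fold change of 0.50 ± 0.20 (DESeq2 adjusted p = 0.240), Hsd3b1 -0.29 ± 0.18 (DESeq2 adjusted p = 0.619) and Fdx1 -0.21 ± 0.15 (DESeq2 adjusted p = 0.722) in the authors' deposited table. None of these 3 passed. The other 4 genes were near 0 in liver. Cyp11a1 had 8, 3, 7, 4, 0 and 4 reads in the 6 liver libraries in order of size factor. Cyp11b1 had 5 reads in all, Cyp11b2 had 3 and Nr5a1 had 2, too few for an adjusted p.

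Spleen held the largest amounts of Star and Nr5a1, and all 8 genes had an estimate above 0 there. In the authors' deposited table Star had a log2 fold change of 0.44 ± 0.41 (DESeq2 adjusted p = 0.917), Nr5a1 0.54 ± 0.33 (DESeq2 adjusted p = 0.895) and Cyp21a1 0.49 ± 0.44 (DESeq2 adjusted p = 0.917). With 0 of 5 tested genes called, against 0.0741% of all features tested, no difference was detectable in spleen, where 0 of the 8 genes had an unadjusted p under 0.05. Of all 32746 spleen features with a p-value, 1539 were under 0.05. Cyp11a1 had 0.14 ± 0.38 (DESeq2 adjusted p = 0.970) and Fdx1 0.18 ± 0.15 (DESeq2 adjusted p = 0.914) in that table. The estimates near 0 reads in spleen, such as 3.30 ± 3.25 for Cyp11b1 from 8 reads, carry errors as large as themselves.

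In brain, 0 of 4 tested genes were called, against 0.0607% of all features tested. Cyp11a1 had a log2 fold change of -0.27 ± 0.21, Star 0.00 ± 0.12, Fdx1 -0.03 ± 0.11 and Nr5a1 1.04 ± 0.72 in the authors' deposited table, each with a DESeq2 adjusted p of 0.99994. None of the 8 had an unadjusted p under 0.05 in brain, against 802 of all 34264 features with a p-value. The other 4 were near 0 there, with 44 reads for Hsd3b1, 20 for Cyp11b2, 8 for Cyp11b1 and 2 for Cyp21a1 over the 6 brain libraries. In heart, 0 of 3 tested genes were called, against 0.541% of all features tested, and 1, Fdx1, had an unadjusted p under 0.05. Of all 32273 heart features with a p-value, 1842 were under 0.05. Star had -0.24 ± 0.18 (DESeq2 adjusted p = 0.816) and Fdx1 0.33 ± 0.16 (DESeq2 adjusted p = 0.568) in that table. Heart Cyp11a1 was read in 5 of 6 libraries, with 58, 14, 11, 8, 2 and 0 reads in order of size factor, and its estimate of -1.14 ± 1.21 (DESeq2 adjusted p = 0.920) was within its error of 0. Heart Nr5a1 had 57 reads in all, Hsd3b1 14 and Cyp11b2 2, while Cyp11b1 and Cyp21a1 were listed at 0.

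The difference between organs was then tested with Cochran's Q over the log2 fold changes of each gene, adjusted by Benjamini-Hochberg over all features. Of the 8 genes, 2 passed, against 0.611% of all features tested. These were Cyp11b2 (Q = 26.3 over 5 organs, adjusted p = 0.00917) and Cyp21a1 (Q = 19.8 over 4 organs, adjusted p = 0.0356). The kidney minus the inverse-variance mean of the other organs also passed for Cyp11b2 alone of the 8 (normal test, adjusted p = 0.000545), against 0.209% of all features tested. Both Cyp11b2 tests take the fitted -23.06 at face value, though 4 of the 6 kidney libraries had no read, and its estimates elsewhere rest on 2 to 20 reads, so they are void as measures of a difference between organs. For Cyp11a1 the kidney minus the other organs came to -6.62 ± 2.05 (adjusted p = 0.265), and for Fdx1 to -0.07 ± 0.12 (adjusted p = 0.99998). The calls of both genes rest on kidney fits that DESeq2 set aside as count outliers, and neither gene passed without them, with adjusted p of 0.173 for Cyp21a1 and 0.999997 for Cyp11b2. The organs come from the same 6 mice, so these p-values are approximate.

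Genes that serve or respond to steroid synthesis were counted in kidney beside the 0.987% of all features tested that were called, a share at which 0 called in a list this short says nothing particular of it. An unadjusted p under 0.05 was reached by 1407 of all 35275 kidney features with a p-value. Of 12 cholesterol supply genes 11 had an adjusted p, and 0 were called by DESeq2, with 1 at an unadjusted p under 0.05. Of 6 electron transfer partners 5 had an adjusted p, and 0 were called, again with 1 at an unadjusted p under 0.05. Of 7 steroid receptor genes 0 were called and 1 had an unadjusted p under 0.05, with a median log2 fold change of 0.0024. Of 16 steroid conversion genes 14 had an adjusted p and 2 were called, against 0.987% of all features tested. Hsd17b11, a 17-beta-hydroxysteroid dehydrogenase, fell with -0.35 ± 0.08 (DESeq2 adjusted p = 0.00719), and Cyp7b1, an oxysterol hydroxylase, rose with 0.45 ± 0.12 (DESeq2 adjusted p = 0.0239) in the authors' deposited table.

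The share of all features called in kidney, 0.987%, applies to the following lists as well. So does the count of 1407 of all 35275 features at an unadjusted p under 0.05. Among 12 genes that respond to aldosterone, 1 fell in Ftsj1-deficient kidneys, Tsc22d3, a target of corticosteroids, with -0.39 ± 0.11 (DESeq2 adjusted p = 0.0380) in the authors' deposited table. The kinase gene Sgk1 had 0.19 ± 0.14 (DESeq2 adjusted p = 0.9997), and the sodium channel subunit Scnn1a 0.02 ± 0.11 (DESeq2 adjusted p = 0.9997) in that table. Of 8 renin-angiotensin genes, 1 fell, Ace, which makes angiotensin II, with -0.42 ± 0.11 (DESeq2 adjusted p = 0.0278), while Ren1 had 0.02 ± 0.11 (DESeq2 adjusted p = 0.9997) in that table. The list medians were 0.03 for the aldosterone-responsive and 0.01 for the renin-angiotensin genes. The markers of kidney itself, 8 genes such as Slc34a1, Umod and Nphs1, had a median of 0.07, and 0 were called by DESeq2, with 3 at an unadjusted p under 0.05. Of the markers of other tissues with a p-value in kidney, 0 of 5 gonad, 0 of 8 adipocyte, 0 of 5 brain and 0 of 4 spleen genes were called by DESeq2, and 1, 1, 2 and 0 of them had an unadjusted p under 0.05. Of 7 hepatocyte genes 2 fell, Ttr with -1.14 ± 0.12 (DESeq2 adjusted p = 1.45e-16) and Serpina1a with -1.08 ± 0.16 (DESeq2 adjusted p = 1.26e-08) in the authors' deposited table. Of 5 heart muscle genes 1 fell, Ryr2 with -0.82 ± 0.14 (DESeq2 adjusted p = 2.30e-06) in that table. The other mitochondrial cytochromes, Cyp27a1, Cyp27b1 and Cyp24a1, were not called, and of the 6 genes similar to Hsd3b1, 4 were listed at 0 and neither Hsd3b3 nor Hsd3b6 was called.

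The 10 kidney features whose levels over 5 organs lay nearest to those of Cyp11a1 were Hoxc4, A730020E08Rik, Tfap2a, Kcnh4, Rgs11, Gm45447, Dcst1, Ccdc180, Gm1604a and Gm13856. Distance was Euclidean on log2(level in ppm + 0.01), from 1.73 for Hoxc4 to 2.62 for Gm13856. None was another steroid synthesis gene, which the rule leaves out. Their kidney log2 fold changes ran from -0.21 to 0.46 in the authors' deposited table, against -6.82 for Cyp11a1. The kidney level of Cyp11a1 that set the distance goes with an empty p-value and may rest on few libraries. The likeness may thus not hold in each kidney, and nothing on a shared difference can be drawn from it.

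RefSeq promoter sequences (GRCm38.p6, 250 bases before and 50 after each start) were at hand for 3 of the 8 genes, Cyp11a1, Hsd3b1 and Fdx1. The kidney estimates of Cyp11a1 and Hsd3b1 were low but had an empty p-value, and their reads per library were not recovered. Whether these sequences bear on any kidney estimate was not tested. Cyp11a1 has 2 listed starts, on the plus strand, and the other genes lie on the minus strand; each sequence reads 5' to 3' along its gene.
Cyp11a1, chr9:57997774-57998073: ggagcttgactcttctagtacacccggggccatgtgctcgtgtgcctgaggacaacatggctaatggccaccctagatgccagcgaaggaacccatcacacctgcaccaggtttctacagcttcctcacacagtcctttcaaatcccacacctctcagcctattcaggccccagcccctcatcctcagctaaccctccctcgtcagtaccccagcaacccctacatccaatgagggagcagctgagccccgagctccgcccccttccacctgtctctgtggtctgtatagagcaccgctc
Cyp11a1, chr9:58014702-58015001: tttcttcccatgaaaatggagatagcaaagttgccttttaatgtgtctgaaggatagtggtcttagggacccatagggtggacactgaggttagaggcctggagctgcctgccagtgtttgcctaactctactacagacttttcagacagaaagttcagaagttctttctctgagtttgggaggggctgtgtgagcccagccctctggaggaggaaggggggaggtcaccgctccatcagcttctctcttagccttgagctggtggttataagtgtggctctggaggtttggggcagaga
Hsd3b1, chr3:98859745-98860044: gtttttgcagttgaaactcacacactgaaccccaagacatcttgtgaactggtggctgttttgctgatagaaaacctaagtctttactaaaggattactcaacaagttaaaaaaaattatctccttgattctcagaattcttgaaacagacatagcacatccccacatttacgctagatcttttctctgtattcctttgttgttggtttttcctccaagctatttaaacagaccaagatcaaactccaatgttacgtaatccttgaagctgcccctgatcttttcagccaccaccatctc
Fdx1, chr9:51963553-51963852: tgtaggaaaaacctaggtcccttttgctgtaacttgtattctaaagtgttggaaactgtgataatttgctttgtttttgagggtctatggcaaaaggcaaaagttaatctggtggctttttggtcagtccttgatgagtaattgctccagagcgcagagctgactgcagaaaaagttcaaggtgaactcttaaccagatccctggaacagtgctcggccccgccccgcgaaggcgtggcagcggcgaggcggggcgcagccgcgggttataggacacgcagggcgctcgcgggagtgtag
The AAGGTCA core bound by Nr5a1, searched on both strands, was in none of the 4 windows and in 4.72% of 32851 promoters of the same length. The variant AAGGCCA (both strands) was in none of the 4 and in 6.20% of all. Only exact matches were counted, so the windows may hold Nr5a1 sites that differ from both. The 2 Cyp11a1 windows hold 7 and 1 CpG, that of Hsd3b1 holds 2 and that of Fdx1 holds 16, against a median of 7 over all promoters.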

How the data were processed

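RNA of 5 organs from 6 mice was sequenced as poly-A libraries, and 3 Ftsj1-deficient mice were set against 3 wildtype mice within each organ. The genes and lists were chosen with earlier results of these data known. Per the submitters' processing notes, GRCm39, featureCounts, Subread 2.0.3 and DESeq2 were used. The deposited mean signal is the average normalised count that the authors' DESeq2 run gave over 6 libraries. Per the file headers, the log2 fold change with its standard error, the Wald score, and the p-value and adjusted p-value come from the same comparison. An empty p-value beside a fold change was read as the removal of count outliers by the authors' DESeq2 run; an empty adjusted p-value alone as its filter on low levels. Alignment settings and the handling of strand and of reads with several matches are not stated in any source at hand. A gene counts as risen or fallen at an adjusted p under 0.05 (Benjamini-Hochberg over the organ's features). No spread over mice can be given for a level, and separate animals gave the libraries.

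Depth per library is not in the tables. Size factors were read from features with 1 read in 1 library, and whole reads per library were worked back from the 15-digit mean by lattice reduction (sympy 1.14.0). A solution was kept where it was the only 1 with an expected number of chance solutions under 0.001. Of 100 kidney features at a mean level of 1 to 10, all 100 gave whole reads, and 0 did so after the printed mean was shifted by 500 units of its last digit. For the 4 kidney members recovered, the expected number of chance solutions was at most 6.8e-05, and 80 shifted means (20 for each gene) gave 0 solutions. Libraries were given no genotype, and no test was run on these reads. Cochran's Q and the difference of kidney from the inverse-variance mean of the other organs were computed with scipy, and transcripts were aligned with blastn. Named genes are the 8 members in every organ, called and tissue-defining genes of each list, and the 10 features nearest to Cyp11a1. Alternatives were other adjustments, a threshold of 0.1, a mean level of 10 or more, another scaling of levels and, chosen after seeing the data, outliers kept in the test or left out of the comparison of organs, and kidney levels without the highest library.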

Additional observations from a re-analysis of the deposited data

Results flagged for a closer look

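The genotype difference of Cyp11b2 passed the test between organs (Cochran's Q = 26.3), and its kidney value minus that of the other organs was -21.83 on the log2 scale. That number cannot be read as a size, since 4 of 6 kidney libraries had no Cyp11b2 read and the fit is then set by the method. The difference of Cyp21a1 also passed that test (Q = 19.8), being -10.82 in kidney, -1.97 in liver and 0.49 in spleen in the authors' deposited table. Both rest on kidney fits with an empty p-value, in which library 3 held 568 of 576 Cyp11b2 reads and 9045 of 9062 Cyp21a1 reads. Without those fits neither passed (Cochran's Q, adjusted p = 0.999997 for Cyp11b2 and 0.173 for Cyp21a1). The tests therefore cannot serve as support for a difference between organs. The cause of these kidney estimates was not tested.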

How the results depend on the processing

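No paired analysis was possible because the tables hold no values per mouse. Leaving out a replicate was not run, as kidney reads were recovered for only 4 of the 8 genes and the libraries carry no names. Of 40 planned recounts of called genes per organ and direction, 39 left the count as it was; the exception was liver, lower, with 0 called when the 5 organs were adjusted together, where Cyp21a1 had an adjusted p of 0.0688. With count outliers kept in the test, 1 gene was called lower in kidney, Cyp11b2 (adjusted p = 3.35e-06 from the deposited Wald score), and the other 6 were not. That p takes the fitted -23.06 at face value, though library 3 held 568 of the 576 reads. It is void as a measure of a genotype difference. Relative to the median feature, Cyp21a1 in kidney minus spleen turned to 0.61 on the log2 scale. Without kidney library 3, Cyp11b2 in kidney minus brain turned to -0.85 on the log2 scale, against 3.86 with it, and Cyp11b1 in kidney minus spleen came to 0.37, against 7.71 with it. Without fits marked as count outliers, neither Cyp11b2 (Q = 0.423) nor Cyp21a1 (Q = 12.5) differed between organs past the threshold. With organs at a mean level of 10 or more, Cyp21a1 still passed Cochran's Q (adjusted p = 0.00884). Kidney met that filter only through library 3, with a Cyp21a1 mean of 1484 normalised counts against 1.34 over the other 5 libraries. That setting keeps the same kidney fit, so it cannot serve as support for a difference between organs. Cyp11b2 could not be tested there, as kidney alone was left. Depth limits libraries 4 to 6 of kidney most, where 0 reads allow up to 3.74, 4.67 and 11.2 normalised reads.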
